A study of Mus musculus with 2 samples.

Results

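The genes described here are 10 transcripts of type 1 conventional dendritic cells (cDC1): Naaa, Gcsam, Ppt1, Wdfy4, Clec9a, Cadm1, Rab7b, Cd36, Pdia5 and Gpr141b. They are 10 of the 17751 genes measured, and they were listed because earlier results of these same libraries showed them lower without Batf3, so their falls are a description and carry no test. Transcripts were counted in single CD11c+ MHCII+ spleen cells, after depletion of T and B cells, of 8-week-old female C57BL/6 mice. The WT library held pooled spleens of 6 wildtype mice and the other those of 6 Batf3-/- mice, whose germline deletion is not confined to dendritic cells. The experiment was performed once, so there is 1 library per genotype, no replicate and no test between genotypes. Cells were grouped by the authors' clusters, C0 to C19, which were made from the same transcripts, so that a cell with less of a gene could also be placed elsewhere by it.

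cDC1 take up dead cells and carry their antigens to CD8 T cells, a task called cross-presentation. Batf3 is an AP-1 transcription factor that binds DNA with Irf8 and keeps Irf8 expression going in developing cDC1. Several of the 10 genes serve this task. Clec9a is a C-type lectin receptor for actin filaments exposed on dead cells, Wdfy4 is needed for cross-presentation of cell-associated antigen, Cd36 is a scavenger receptor for lipids and dying cells, and Cadm1 is an adhesion molecule used as a cDC1 surface marker. Rab7b is a small GTPase of late endosomes. Naaa and Ppt1 are lysosomal hydrolases, the first of fatty acid ethanolamides and the second of fatty acids bound to protein. Pdia5 is a protein disulfide isomerase of the endoplasmic reticulum, Gcsam is a signalling adaptor known from germinal centre B cells, and Gpr141b is an orphan G protein-coupled receptor that has also been called Karma.

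Promoter windows from RefSeq (GRCm38.p6, 250 bases before to 50 after the start) were held for 8 of the 10 genes, Cadm1 and Rab7b being the other two. The 250 bases before the start are shown for 3 genes that stand for the kinds of fall described below. Naaa fell far in both C6 and C4, Gpr141b fell mainly in C6, and Clec9a was among the least reduced. Naaa (chr5:92257659-92278170), Gpr141b (chr13:19727426-19732951) and Clec9a (chr6:129408862-129424763) are given here by their GENCODE positions on GRCm38, and their RefSeq windows lie, in this order, at chr5:92278182-92278431 on the minus strand, chr13:19732952-19733201 on the minus strand and chr6:129408612-129408861 on the plus strand. Capitals mark the only match to any of the motifs searched.
Naaa: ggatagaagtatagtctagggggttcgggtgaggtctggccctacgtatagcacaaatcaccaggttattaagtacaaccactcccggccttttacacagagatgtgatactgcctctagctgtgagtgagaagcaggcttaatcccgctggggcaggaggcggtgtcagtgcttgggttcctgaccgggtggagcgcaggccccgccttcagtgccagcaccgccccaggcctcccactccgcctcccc
Gpr141b: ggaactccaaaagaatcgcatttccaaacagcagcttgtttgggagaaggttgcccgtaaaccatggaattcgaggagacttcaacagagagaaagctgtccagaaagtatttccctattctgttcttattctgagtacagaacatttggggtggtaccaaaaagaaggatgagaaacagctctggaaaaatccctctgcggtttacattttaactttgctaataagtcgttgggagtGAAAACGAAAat
Clec9a: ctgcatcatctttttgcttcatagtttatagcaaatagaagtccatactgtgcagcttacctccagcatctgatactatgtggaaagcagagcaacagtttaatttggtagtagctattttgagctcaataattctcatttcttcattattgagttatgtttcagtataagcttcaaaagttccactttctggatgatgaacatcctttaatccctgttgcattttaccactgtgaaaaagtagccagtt
The AP-1 motif TGANTCA was found on neither strand in the 8 windows, and 7.81% of all 32851 windows of this length hold it. At that share, 0 of 8 does not set these windows apart. The joint AP-1 and Irf motifs, GAAATGANTCA and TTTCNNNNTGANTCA, both of which contain TGANTCA, were likewise not found in the 8 windows, and 0.125% and 0.119% of all windows hold them. A paired Irf motif, GAAA and GAAA with any 2 bases between, was found once, in Gpr141b, from 12 to 3 bases before the start, and 3.44% of windows hold it. An ETS and Irf motif, GGAA and GAAA with any 2 bases between, was found in none of the 8 and in 2.72% of all windows. Both strands were read. These are matches of letters in short windows next to the start and say nothing of sites farther away. Other starts were not searched. The Cd36 window (chr5:17835847-17836146) lies within the GENCODE span of the gene (chr5:17781690-17888801, minus strand), away from its GENCODE start. The Wdfy4 window (chr14:33185017-33185316) also lies wholly within the GENCODE span of its gene (chr14:32959547-33185508, minus strand) and does not reach the GENCODE start.

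C4 is the immature cDC1 cluster and C6 its mitotic counterpart. C6 held 797 WT and 727 Batf3-/- cells with a median of 19599 and 18019 unique molecular identifiers (UMIs, 1 per captured transcript), and C4 held 2202 WT but only 31 Batf3-/- cells with medians of 15399 and 14220. Batf3 itself had 4499 UMIs in WT C6 and 6 in Batf3-/- C6, and 8138 and 1 in C4. All 7 cDC1 markers that served as a check (Xcr1, Tlr3, Irf8, Itgae, Cd8a, Snx22 and Btla) had UMIs in both clusters and both libraries, with a summed level of 3010 counts per 1e+06 UMIs (CPM) in WT C6, 1235 in Batf3-/- C6, 3346 in WT C4 and 2382 in Batf3-/- C4. Most of each sum was Irf8, in this order at 1895, 941, 1970 and 1439 CPM. Itgae had only 3 UMIs in Batf3-/- C6 and 2 in Batf3-/- C4. The 6 cDC2 markers (Sirpa, Itgam, Cd209a, Clec10a, Clec4a4 and Mgl2) summed to 32.7 CPM in WT C6 and 193 in Batf3-/- C6, against 369 in Batf3-/- cells of the mitotic cDC2 cluster C5. In C4 they summed to 39.1 and 153 CPM, with Clec4a4 and Mgl2 at 0 in Batf3-/-. The 8 red pulp macrophage markers summed to 91.6 CPM in WT C4 and 391 in the 31 Batf3-/- C4 cells, and to 22.6 and 27.6 in C6. The part of these shifts in the falls below was not tested. Of all barcode sequences, 56 occurred in both libraries, 4 of them among Batf3-/- C6 cells, 2 among WT C6 cells, 8 among WT C4 cells and 0 among Batf3-/- C4 cells. Doublet calling marked 61 WT and 8 Batf3-/- cells in C6 and 239 WT and 1 Batf3-/- cell in C4. They were kept, and leaving them out changed none of the member counts in either cluster.

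How far each gene fell in the mitotic cDC1 of C6 was read from summed UMIs, and the 95% intervals here and below are exact and cover counting error only, not the spread between mice or cells. All 10 genes were more than 2-fold lower in Batf3-/- C6. Of them, 9 passed a filter of 50 CPM averaged over both libraries and 20 UMIs, which 2585 genes passed and under which 1.93% of genes were at least 2-fold lower. Cd36, at 85.3 and 4.46 CPM, stayed under it. At least 4-fold lower were 6 of the 9, against 0.58% of all genes, and at least 2-fold higher were 0 of the 9, against 1.66%. The median log2 ratio was -2.85 over these 9 and 0.01 over all genes that passed. Gcsam, Cadm1, Pdia5 and Gpr141b passed through their WT level alone. Because the list was made from this contrast, these counts describe the choice and nothing is read from them.

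The deepest fall was that of Gcsam. WT C6 held 1608 Gcsam UMIs (103 CPM) and Batf3-/- C6 held 2 (0.149 CPM), a ratio of 692-fold with an interval of 191 to 5720. Batf3 itself was 645-fold (296 to 1760) lower, and the 2 intervals overlap. Cd36 was 19.2-fold lower (14.8 to 25.2), with 1335 UMIs in WT and 60 in Batf3-/- C6.

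The adhesion molecule Cadm1 went from 151 to 12.3 CPM, 12.3-fold lower (10.5 to 14.5). The receptor Gpr141b went from 93.1 to 8.47 CPM, 11.0-fold lower (9.09 to 13.4). Neither of these differed from the other beyond its interval.

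The lysosomal hydrolases were the most abundant of the 10 in WT C6 and kept a measurable level. Naaa fell from 941 CPM (interval 926 to 956) to 98.8 (93.6 to 104), which is 9.52-fold lower (8.997 to 10.1). Ppt1 fell from 1113 to 168 CPM, 6.62-fold lower (6.33 to 6.92). Pdia5, the isomerase, was 7.19-fold lower (6.24 to 8.33), at 114 CPM in WT and 15.8 in Batf3-/-.

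Clec9a, Wdfy4 and Rab7b had the smallest falls. Clec9a went from 203 to 82.1 CPM, 2.48-fold lower (2.31 to 2.65). Wdfy4 went from 465 to 194 CPM, 2.40-fold lower (2.29 to 2.51). Rab7b, the late endosomal GTPase, went from 259 to 113 CPM, 2.29-fold lower (2.15 to 2.43). These 3 neighbours lie within each other's intervals or touch them, and each kept 40.4% to 43.8% of its WT level.

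**Figure D1:**
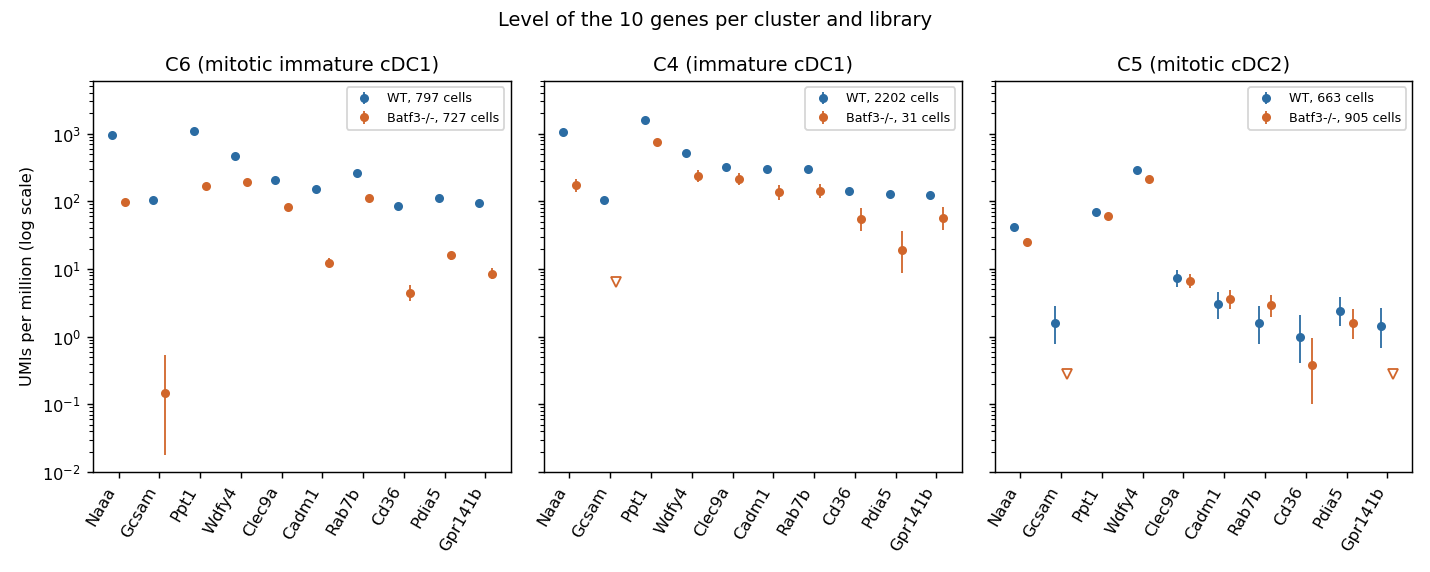
Level of each of the 10 genes in C6, C4 and the mitotic cDC2 cluster C5, in CPM on a log axis, for WT (blue) and Batf3-/- (orange), 1 library each. Points are summed UMIs over all cells of the cluster, bars are exact Poisson 95% intervals, and open triangles mark the level that 3 UMIs would give where none was seen. In C6 Gcsam lies near 0.149 CPM in Batf3-/- while Wdfy4, Rab7b and Clec9a stay between 82.1 and 194 CPM.

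In C4 the same genes could be read from the 31 Batf3-/- cells, which hold 470604 UMIs. Here 9 of the 10 were at least 2-fold lower and all 10 passed the filter, under which 1.86% of 2417 genes were at least 2-fold lower. Gcsam and Pdia5 passed through their WT level alone, and nothing is read from this count. Their median log2 ratio was -1.12, where the median over all genes was 0.10, so that a typical gene stood slightly higher in Batf3-/- C4. Gcsam had 3524 UMIs in WT C4 and 0 in Batf3-/-, which is at least 16.2-fold lower against a floor of 3 UMIs over the group, and 13.2-fold by the lower limit of the exact interval. Pdia5 was 6.70-fold lower (3.53 to 14.7) with 9 UMIs left. Naaa was 6.16-fold lower (4.96 to 7.76), from 1061 to 172 CPM.

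The other members lay closer to WT in C4. Cd36 was 2.54-fold lower (1.73 to 3.89), Cadm1 2.19-fold (1.71 to 2.85), Gpr141b 2.15-fold (1.48 to 3.27), Wdfy4 2.15-fold (1.79 to 2.61), Ppt1 2.14-fold (1.93 to 2.39) and Rab7b 2.09-fold (1.64 to 2.70). These 6 do not differ from each other beyond their intervals. Clec9a, at 325 CPM in WT and 217 in Batf3-/-, was 1.498-fold lower (1.23 to 1.84) and the only one of the 10 to stay under 2-fold.

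The falls in C6 and C4 were then set against each other as the difference of the log2 ratios, with an interval built from both exact intervals. For 6 of the 9 genes with a value, the fall in C6 was larger beyond this interval. Of those with a value, 8 passed the filter in both clusters, 5 of them with the larger fall in C6, against 14.8% of 2180 genes, and the median difference over all these genes was -0.09. Cadm1 and Gpr141b, both among the 5, passed in C6 through their WT level alone, so nothing is read from this count. The difference was largest for Cd36 at -2.92 (-3.60 to -2.20), Cadm1 at -2.49 (-2.91 to -2.05) and Gpr141b at -2.35 (-2.97 to -1.69), followed by Ppt1 at -1.63 (-1.79 to -1.46). These 4 are the genes whose Batf3-/- level differs most between the clusters. Cd36 was 12.4-fold higher in Batf3-/- C4 than in Batf3-/- C6 (7.51 to 19.95), Cadm1 11.0-fold (8.13 to 14.8), Gpr141b 6.78-fold (4.28 to 10.4) and Ppt1 4.45-fold (3.96 to 4.98). In WT the step from C6 to C4 was between 1.33-fold for Gpr141b and 1.97-fold for Cadm1 among these 4.

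Clec9a showed a smaller difference of -0.72 (-1.02 to -0.41) between its falls. Among G1 cells of both clusters it was 0.051, but WT C6 has only 13 G1 cells. For Wdfy4 (-0.16, interval -0.43 to 0.13), Rab7b (-0.13, interval -0.49 to 0.25) and Pdia5 (-0.10, interval -1.05 to 1.05) the interval holds 0. No difference between the clusters was thus detectable for these 3, and the interval of Pdia5, from 9 UMIs in Batf3-/- C4, is the widest. Gcsam gives no difference because Batf3-/- C4 holds none, although its bound in C4 alone exceeds the fold of every other member there.

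Naaa had a difference of -0.63 (-0.95 to -0.28), and this value rests on few cells. Among G1 cells of both clusters it was -0.022, again with 13 WT C6 cells. The 3 Batf3-/- C4 cells with most Naaa held 13, 11 and 10 of the 81 Naaa UMIs, while the cell next in order held 5. Without these 3 cells, an alternative chosen after the data had been seen, Naaa was 9.49-fold lower in C4 and the difference was -0.00 (-0.42 to 0.45). The same 3 cells held 1 Cadm1 UMI, 1 Cd36 UMI and 1 Gpr141b UMI, and 49 of Ppt1. Their Naaa level was 680 CPM, against 112 in the other 28 cells.

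**Figure D2:**
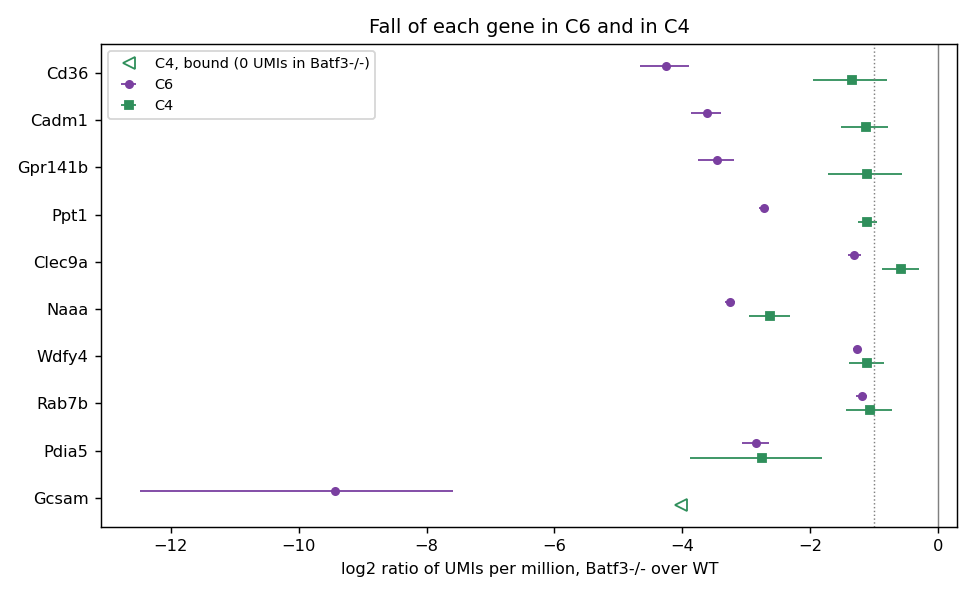
Log2 ratio of Batf3-/- over WT levels for each gene in C6 (purple circles) and C4 (green squares), ordered by the difference between the clusters, with exact 95% counting intervals. The dotted line marks 2-fold lower, and the open triangle is the bound for Gcsam in C4. Cd36, Cadm1, Gpr141b and Ppt1 lie far apart in the 2 clusters, Wdfy4, Rab7b and Pdia5 together.

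The remaining cDC1 clusters held few Batf3-/- cells. In the mature cDC1 of C12, WT levels of the members were already low, between 4.38 CPM for Gcsam and 113 for Wdfy4, and the 31 Batf3-/- cells held between 0 and 24 UMIs of each. Of the 2 members that passed the filter there, 1 was at least 2-fold lower, where 2.6% of genes were. This was Ppt1, at 82.9 CPM in WT and 21.7 (6 UMIs) in Batf3-/-, which passed through its WT level alone. Wdfy4 had a log2 ratio of -0.38 (-1.04 to 0.22), an interval that holds no change. C17 and C18 held 1 and 2 Batf3-/- cells and were not compared.

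Whether what is left of each gene sits in few or all Batf3-/- C6 cells was asked next. A UMI of Wdfy4 was seen in 93.5% of these 727 cells (91.5 to 95.2, Clopper-Pearson 95% interval), of Ppt1 in 80.9%, of Rab7b in 77.0%, of Naaa in 72.2% and of Clec9a in 69.3%. Pdia5 was seen in 24.2%, Cadm1 in 13.3%, Gpr141b in 12.0%, Cd36 in 6.19% and Gcsam in 0.275%, which is 2 cells with 1 UMI each. A share of this kind follows the level and the depth, so each was set beside the share expected if the same UMIs were spread over all cells in proportion to their depth.

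Against that, Pdia5 and Wdfy4 were nearly even. Pdia5 was seen in 24.2% of cells where even spread gives 25.1%, and Wdfy4 in 93.5% where it gives 95.4%. Naaa (72.2% against 81.5%), Rab7b (77.0% against 85.2%), Clec9a (69.3% against 75.9%) and Ppt1 (80.9% against 93.4%) fell somewhat short. They had at most 14, 11, 8 and 24 UMIs in 1 cell. In the shallower Batf3-/- C5 cells the unthinned shares were 25.0% for Naaa, 2.10% for Rab7b, 5.30% for Clec9a, 49.2% for Ppt1 and 86.2% for Wdfy4.

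Set against even spread, Cadm1 was the least even. It was seen in 97 cells, 13.3% where even spread gives 20.2%, with at most 7 UMIs in 1 cell. In WT C6 Cadm1 was also the least even of the 10, at 72.0% of cells against 92.9%. Gpr141b (12.0% against 14.4%) and Cd36 (6.19% against 7.89%) were intermediate.

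The variance between cells beyond counting, as a squared coefficient of variation, gives Cd36 and Cadm1 the highest values, in the other order. In Batf3-/- C6 it was 0.07 for Wdfy4, 0.17 for Pdia5, 0.22 for Clec9a, 0.32 for Rab7b, 0.49 for Naaa, 0.61 for Ppt1, 2.87 for Gpr141b, 5.69 for Cadm1 and 8.98 for Cd36, the last from 60 UMIs. In WT C6 it lay between 0.07 for Wdfy4 and 0.22 for Gpr141b, apart from Cadm1 at 0.82. For Ppt1 it went from 0.09 in WT to 0.61 and for Naaa from 0.16 to 0.49, while Wdfy4 (0.07 and 0.07) and Pdia5 (0.16 and 0.17) stayed close.

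**Figure D3:**
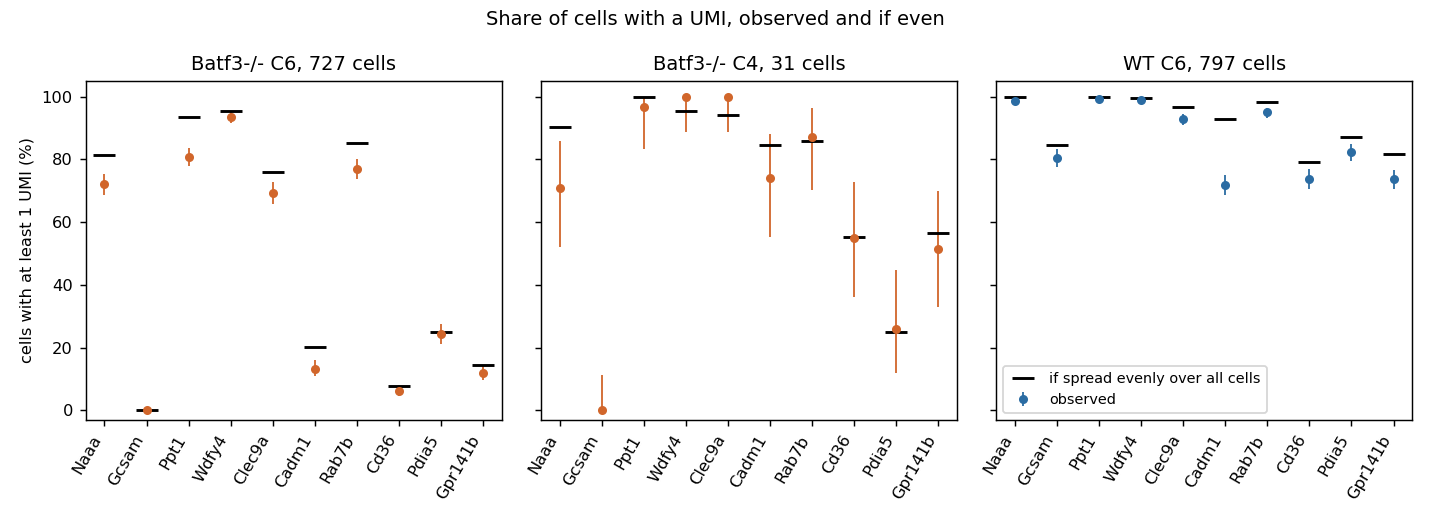
Percent of cells with at least 1 UMI of each gene (points, Clopper-Pearson 95% intervals) beside the percent expected if the same UMIs were spread over all cells by depth (black dashes), in Batf3-/- C6, Batf3-/- C4 and WT C6. Points at the dash are evenly spread genes such as Pdia5, and in C6 Cadm1 lies farthest below it in relation to its level, in WT as well.

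With every cell thinned to 1000 UMIs, which left out 0 C6 cells of either library, Naaa was seen in 58.2% of WT and 10.2% of Batf3-/- C6 cells, Rab7b in 24.0% and 9.49%, Cadm1 in 12.8% and 1.10%, and Gcsam in 9.79% of WT and 0 of 727 Batf3-/- cells, which allows a share of up to 0.413% by 3 counts, and 0.506% by the exact interval. As background, Batf3-/- cDC2 of C5 (median 11116 UMIs) showed Naaa in 1.66% of cells, Rab7b in 0.110% and Cadm1 in 0.221%. In Batf3-/- C0 (median 7187 UMIs), the main cDC2 cluster, they were seen in 2.17%, 0.169% and 0.169%. Ppt1 was seen in 15.8% of Batf3-/- C6, 5.86% of Batf3-/- C5 and 8.97% of Batf3-/- C0 cells. For Wdfy4 the share in Batf3-/- C6, 17.6%, was no higher than the 18.1% of Batf3-/- C5.

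Levels were also set against the mitotic cDC2 of C5 in the same library. Rab7b was 39.0-fold higher in Batf3-/- C6 than in Batf3-/- C5 (27.4 to 57.6), Clec9a 12.3-fold (9.70 to 15.9), Cd36 11.9-fold (4.41 to 45.0), Pdia5 9.93-fold (6.06 to 17.4), Naaa 3.95-fold (3.46 to 4.52), Cadm1 3.46-fold (2.42 to 5.06) and Ppt1 2.78-fold (2.55 to 3.04). Gpr141b had 114 UMIs in Batf3-/- C6 and 0 in C5. Wdfy4 was the exception, at 194 CPM in C6 and 215 in C5, a ratio of 0.904 (0.854 to 0.956), whereas in WT it was 1.61-fold higher in C6 (1.53 to 1.69). Counted as the excess over C5 of the same library, Rab7b kept 42.9% and Clec9a 38.5% of the WT excess, Pdia5 12.8%, Ppt1 10.3%, Gpr141b 9.23%, Naaa 8.21%, Cadm1 5.91%, Cd36 4.84% and Gcsam 0.147%.

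The members with a UMI were also counted in each cell thinned to 5000 UMIs. The median was 6 of 10 in WT C6 and 2 in Batf3-/- C6. It was 7 in WT C4 and 5 in Batf3-/- C4, and 1 in C5 of both libraries. In Batf3-/- C6, 6 of 723 cells showed 6 or more members (0.830%), against 510 of 789 in WT C6 (64.6%). At the other end 47 Batf3-/- C6 cells (6.50%) showed none, compared with 204 of 888 Batf3-/- C5 cells (23.0%). The Batf3-/- C6 cells had 1 peak, at 2 members (227 cells), and no cell showed more than 6. No count for genes spread independently was set beside these, so they do not tell whether the residual of several genes shared cells. At this depth Cadm1, Cd36 and Gpr141b were seen in only 6.22%, 2.77% and 3.04% of Batf3-/- C6 cells.

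**Figure D4:**
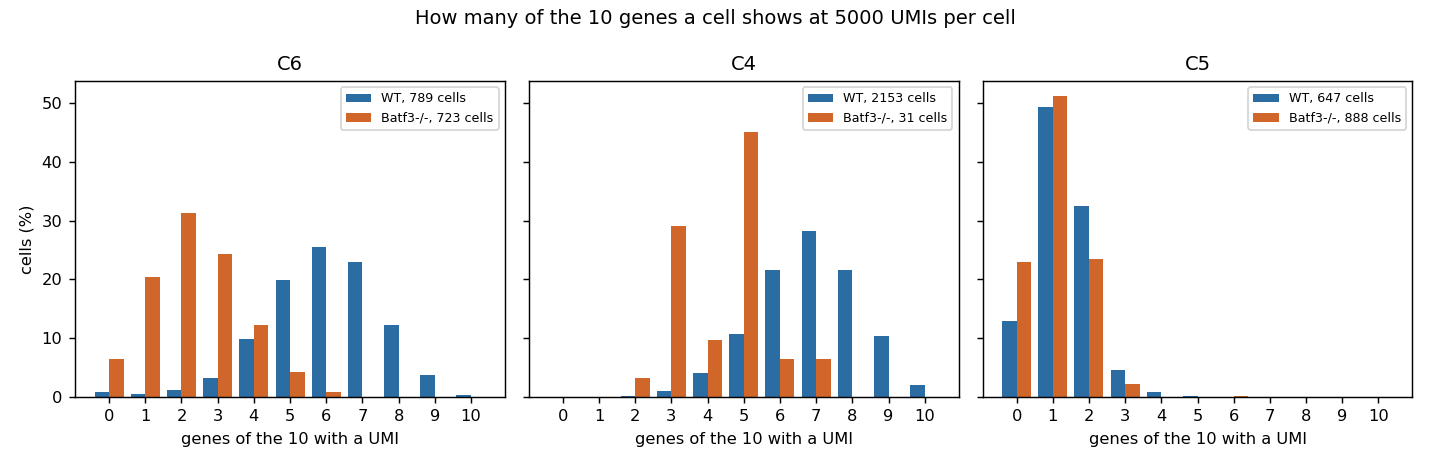
Percent of cells by the number of the 10 genes with a UMI, each cell thinned to 5000 UMIs, in C6, C4 and C5 for WT (blue) and Batf3-/- (orange). The Batf3-/- C6 cells peak at 2 genes, between the C5 cells (peak at 1) and the WT C6 cells (peak at 6), and the 31 Batf3-/- C4 cells have their median at 5.

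The 97 Batf3-/- C6 cells with a Cadm1 UMI (median 16960 UMIs) were compared with the 630 without one (median 18408). Cd36 was at 13.6 CPM in the former and 3.14 in the latter, 4.31-fold higher (2.44 to 7.45). Gpr141b was 2.15-fold higher (1.34 to 3.35), Ppt1 1.72-fold (1.54 to 1.90) and Naaa 1.38-fold (1.19 to 1.596). The cells with Cadm1 also held 2.44-fold more of the chemokine receptor Xcr1 (2.02 to 2.93). Wdfy4 (1.03-fold, 0.920 to 1.16) and Pdia5 (0.880-fold, 0.550 to 1.35) had intervals that hold 1. The cells with Cadm1 and those with Cd36 shared 14 cells, which is 14.4% of the former, where 6.19% of all 727 cells had Cd36, and 31.1% of the 45 with Cd36, where 13.3% of all cells had Cadm1. Of the 727 cells, 540 had no UMI of Cadm1, Cd36 or Gpr141b, and 1 had all 3. In WT C6, where 574 cells had a Cadm1 UMI, the same split gave 1.65-fold for Cd36 (1.43 to 1.91) and 1.75-fold for Xcr1 (1.64 to 1.88).

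Cell cycle phase moved the residual little for some genes and more for others. In Batf3-/- C6, 538 of 727 cells were in S or G2M by the authors' calls (74.0%), compared with 784 of 797 in WT (98.4%). Naaa was at 100 CPM in G1, 99.8 in S and 96.3 in G2M cells of Batf3-/- C6. Its spread over cells differed more, since it was seen in 55.6% of 189 G1 cells, where even spread gives 73.7%. In S or G2M cells it was seen in 78.1%, against 84.3%. Cadm1 went the other way, at 17.5% against 21.4% in G1 and 11.9% against 19.9% in S or G2M. Clec9a was highest in G1 at 103 CPM (90.9 to 116), against 73.4 in S and 83.3 in G2M. Cadm1 and Gpr141b were at 17.3 and 12.0 CPM in G1 and at 8.13 and 4.57 in G2M, and their G1 and G2M intervals do not overlap. Cd36 went the other way, at 1.88 CPM in G1 (5 UMIs), 6.26 in S (43 UMIs) and 3.05 in G2M (12 UMIs). Its G1 interval ends at 4.39 CPM and its S interval begins at 4.53, so they narrowly fail to overlap. These intervals cover counting error only, and Cadm1, Gpr141b and Cd36 had the highest variance between cells beyond it. Ppt1 was highest in S, at 200 CPM (190 to 211), against 142 in G1 and 130 in G2M.

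Other genes of the cDC1 program were taken from a list of 22, all of which were measured. In C6, 10 passed the filter, of which 6 were at least 2-fold lower, where 1.93% of all genes were, and 0 at least 2-fold higher, with a median log2 ratio of -1.01. Xcr1 and Tlr3 passed through their WT level alone, so nothing is read from this count. Xcr1 was 8.70-fold lower, from 397 to 45.7 CPM, and thus lay between Naaa and Pdia5. Ifi205 was 3.32-fold lower, Cd8a 2.95-fold, the endosomal receptor Tlr3 2.74-fold, the cytokine receptor Flt3 2.02-fold and Irf8 2.01-fold. Btla (1.87-fold lower), Cxcl9 (1.23-fold lower), Id2 (1.04-fold lower) and Cd24a (1.02-fold higher) passed but lay within 2-fold. Under the filter, Itgae (51.7-fold, 3 UMIs left), Fgd6 (47.1-fold, 4 UMIs left) and Dbn1 (30.3-fold, 27 UMIs left) fell further than Xcr1. So did Gpr33 (18.9-fold, 2 UMIs left), Sept3 (13.5-fold, 52 UMIs left) and Plpp1 (11.9-fold, 64 UMIs left). Clnk had 164 UMIs in WT and 0 in Batf3-/-. The smallest falls there were those of Nfil3 (1.39-fold) and Hepacam2 (1.19-fold). In C4, 14 passed and 5 were at least 2-fold lower, where 1.86% of all genes were, with a median of -0.94. Of these, Snx22 and Plpp1 passed through their WT level alone, and nothing is read from this count either. Xcr1 was there 1.96-fold lower and Cd8a 1.18-fold higher. Of 22 listed cDC2 genes, the 6 with the largest ratios among those past the filter in C6 passed it through their Batf3-/- level alone, so no count is given for the list. The lectin Cd209a was at 14.9 CPM in WT and 139 in Batf3-/- C6, Ms4a4c at 24.7 and 180, Tmem176b at 34.1 and 186, Tmem176a at 28.6 and 142, the oxidase subunit Cybb at 22.4 and 109 and the lymphotoxin gene Ltb at 41.7 and 156. Of the 3 above 50 CPM in both libraries, named after their values were seen, S100a4 was 2.73-fold, Ccr2 1.94-fold and Klf4 1.91-fold higher. Of the list members under the filter, Itgam was 9.16-fold higher, Cx3cr1 3.39-fold, Cd4 2.38-fold, Csf1r 2.31-fold, Sirpa 2.25-fold, Clec4a3 1.81-fold and Cd7 1.79-fold. Dtx1 was lower, at 9.78 CPM in WT and 4.98 in Batf3-/- (log2 ratio -0.98, -1.41 to -0.55). The intervals of Mgl2, Clec10a, Clec4a4, Irf4 and Notch2 hold no change.

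Because Naaa and Ppt1 are lysosomal and Rab7b and Pdia5 belong to the endosome and the endoplasmic reticulum, 26 other genes of antigen handling and the lysosome were read beside them. Of 20 that passed in C6, 0 were at least 2-fold lower, 19 lay within 2-fold and Cybb was 4.85-fold higher, with a list median of -0.20 on the log2 scale. Since 1.93% of all genes were at least 2-fold lower, a count of 0 of 20 does not set this list apart. The lysosomal acid ceramidase Asah1, of the same enzyme family as Naaa, was at 156 CPM in WT and 143 in Batf3-/- C6. Rab7, the relative of Rab7b, was at 153 and 124 CPM. The isomerases Pdia3, Pdia4 and Pdia6 were 1.48-fold, 1.21-fold and 1.16-fold lower, compared with 7.19-fold for Pdia5. In C4 21 of these genes passed, again with 0 at least 2-fold lower, where 1.86% of all genes were.

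The members were read outside the cDC1 clusters as well. There they were counted where both libraries together held at least 20 UMIs. A member that is rare in Batf3-/- reaches this through WT alone or nearly so, and nothing is read from the counts by cluster. Of all Naaa UMIs of the WT library, 93.2% were in the 5 cDC1 clusters, and of those of the Batf3-/- library 32.6%. For Rab7b the shares were 97.3% and 87.1%, for Gpr141b 97.3% and 82.7%, and for Wdfy4, which cDC2 also express, 61.6% and 14.98%. These shares also depend on how many cDC1 each library held. C4 had 2202 WT and 31 Batf3-/- cells, C12 394 and 31, and C6 797 and 727. In C0 Naaa was at 40.3 CPM in WT and 22.5 in Batf3-/-, Cd36 at 2.02 and 0.0914, and Wdfy4 at 312 and 236. All 10 members were lower by value in Batf3-/- C0, where 47.9% of 11626 genes were. Cd36, Pdia5 and Gpr141b were counted there through WT alone, and Gcsam through 19 UMIs in WT and 1 in Batf3-/-. Over all cells of a library, Naaa was at 452 CPM in WT and 37.9 in Batf3-/-, Gcsam at 43.5 and 0.0437, and Cd36 at 54.6 and 2.11. Whether transcript from cDC1 enters the low levels in C0 and the other clusters outside cDC1 was not tested. In the lymphoid cluster C13 the 8 members with at least 20 UMIs were all lower, against 46.7% of genes. Naaa, Clec9a, Cadm1, Rab7b and Pdia5 were counted through WT alone, and Gcsam through 19 UMIs in WT and 1 in Batf3-/-. Naaa in C13 was at 124 and 13.9 CPM. There, with cells not thinned, 7 of 241 WT cells showed 6 or more of the members, 5 of them called doublets. The 24 WT cells with most of the members held 76.0% of the member UMIs. Without cells of 6 or more members, an alternative chosen after seeing the data that lowers the WT level by its construction, WT Naaa in C13 was 33.6 CPM and the fall 2.42-fold.

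In the monocyte cluster C15 all 10 were lower by value, where 50.6% of genes were, with Gcsam, Pdia5, Gpr141b, Cadm1, Rab7b and Clec9a counted through WT alone. Naaa was at 328 CPM in WT and 66.5 in Batf3-/-, Rab7b at 93.3 and 2.29, and Gcsam had 26 UMIs in WT and 0 in Batf3-/-, at least 3.30-fold lower against a floor of 3 UMIs, and 2.50-fold by the lower limit of the exact interval. Xcr1 moved with them, at 128 and 2.29 CPM. In WT C15, with cells not thinned, 25 of 145 cells showed 6 or more of the members and 0 of 52 in Batf3-/-. The latter allows a share of up to 5.77% by 3 counts, and 6.85% by the exact interval. The Batf3-/- cells were the deeper ones (median 8056 against 6151 UMIs). Doublet calling marked 5 of those 25 cells. Leaving out the 25 cells, an alternative chosen after seeing the data, lowers the WT level by its construction, so nothing is read from the change. Without them WT Naaa was 133 CPM and the fall went from 4.93-fold to 1.999-fold. Ppt1 was then 1.29-fold lower, and Rab7b had 5 UMIs in WT and 1 in Batf3-/-. The 7 cDC1 markers summed to 1057 CPM in WT C15 and 319 in Batf3-/- C15, with Itgae and Snx22 at 0 in the latter, and their part in these differences was not tested.

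In the other clusters with at least 20 cells in each library, members and all genes were counted in the same way. All counted members were lower by value in C1 (8 of 8, against 51.2% of genes), C11 (7 of 7, against 50.3%), C9 (4 of 4, against 48.1%) and C16 (4 of 4, against 48.7%). Most were in C2 (7 of 8, against 48% of genes), C7 (6 of 7, against 51.8%), C3 (5 of 6, against 46.9%), C8 (5 of 6, against 52.7%), C14 (6 of 8, against 48.7%), C5 (5 of 7, against 51.9%) and C10 (4 of 6, against 52.4%). In C19 only Cd36 was counted and it was higher, where 51.5% of genes were lower. Outside C19, the members higher by value in Batf3-/- were Rab7b in C2, C5, C7 and C10, Cadm1 in C3, C5, C8 and C10, and Clec9a and Pdia5 in C14, each with an interval that holds no change. Cd36 in C15 was at 148 CPM in WT and 126 in Batf3-/- (1.18-fold lower, 0.863 to 1.62), above the 55.2 CPM of Batf3-/- C4. Clec9a in plasmacytoid DCs (C14) was at 113 and 125 CPM, above its level in Batf3-/- C6. Pdia5 in C14 was at 25.0 and 25.9 CPM. Within the Batf3-/- library Cadm1 was higher in C16 (37.5 CPM), C11 (37.1) and C14 (31.7) than in C6 (12.3), although in these 3 clusters too it was below WT, 1.69-fold, 1.43-fold and 1.70-fold. Among Batf3-/- groups of at least 20 cells, C4 and then C6 had the highest levels of Naaa, Ppt1, Rab7b and Gpr141b. For Clec9a C14 and for Wdfy4 C0 (236 CPM) and C5 (215 CPM) lay between C4 and C6. For Cd36 C15 and C19 (114 CPM) lay above C4, and for Pdia5 C14 did.

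**Figure D5:**
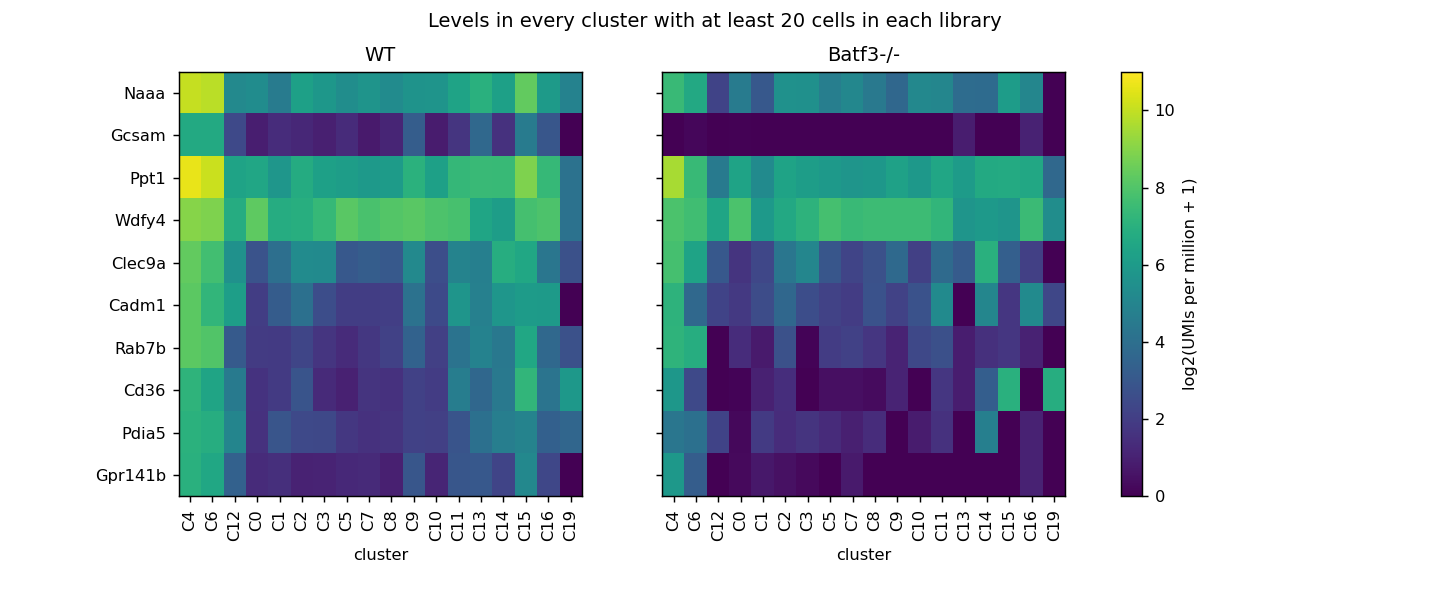
Levels of the 10 genes as log2(CPM + 1) in each cluster with at least 20 cells in both libraries, WT on the left and Batf3-/- on the right. C4 and C6 are the brightest columns in WT for most genes, Wdfy4 is bright in most clusters, Cd36 also in C15 and C19 and Clec9a also in C14.

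Across 37 groups of at least 30 cells (a cluster in a library), the genes whose log2(CPM + 1) most resembled the mean scaled profile of the 10 members were Xcr1 (Pearson r = 0.94), P3h2 (0.93), 2310031A07Rik (0.93), Tlr3 (0.92), Pianp (0.90), Fuca1 (0.89), Snx22 (0.87), Hepacam2 (0.86), Hk3 (0.85) and Pde1b (0.85), out of 6025 genes compared. The groups share 2 libraries and differ in depth, so these values are descriptions. In C6, Xcr1, Snx22 (8.15-fold lower) and Hk3 (8.12-fold lower) were the most reduced of these, and Hepacam2 (1.19-fold) and Fuca1 (1.44-fold) the least. Of the members themselves, which enter that mean, Gpr141b (0.97) and Ppt1 (0.96) lay closest to it and Wdfy4 (0.61) and Cd36 (0.73) farthest.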

How the data were processed

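Spleen cells of both genotypes were captured with 10x Genomics 3' chemistry, which counts 1 tag near the end of a transcript. The submitters' processing notes name bcl2fastq 2.2.0, Cell Ranger, the GRCm38 build and Seurat 3.0.5, with which the authors made count tables and clustered the cells. The deposited tables give raw counts of UMIs for each gene in each cell. The deposited mitochondrial and ribosomal shares are a fraction of a cell's UMIs. The total of each of the 24343 cells equalled the deposited one. Antibody tables carry no antibody names and were not used here, nor were the authors' comparison tables, which hold fold changes and p-values. The 10 genes and all gene lists were chosen with earlier results of these data known. Named genes were the 10, Batf3, up to 6 genes per list at least 2-fold changed in C6, and the 10 most alike by Pearson r. Further genes within lists were named for their kinship to a member, or to show other members of their list, after their values were seen.

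Levels are UMIs summed over cells per 1e+06 UMIs (CPM) with exact Poisson 95% intervals, and intervals of ratios come from an exact binomial test on how the UMIs divide between libraries. Intervals for differences of ratios combine both exact intervals, and shares have Clopper-Pearson intervals. All cover counting error only. Limits for a count of 0 use 3 counts. Cells were thinned without replacement. Doublets were called per library with Scrublet in scanpy 1.11.5 at an expected rate of 0.1, a rate chosen with earlier calls known, and left out only as an alternative. Analyses used Python 3.11.15, numpy 2.4.6, scipy 1.17.1, pandas 2.3.3 and matplotlib 3.10.9. The intervals of ratios were tested before use on simulated Poisson counts, which leave out the variance between cells beyond counting. Gene names follow the deposited tables and promoters RefSeq. The alternatives were other weights, totals, filters, depths and subsets of cells.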

Additional observations from a re-analysis of the deposited data

How the results depend on the processing

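All 10 members stayed at least 2-fold lower in C6 under each alternative run except among G1 cells, where 8 did, with Clec9a at -0.44 and Rab7b at -0.75 on the log2 scale against only 13 WT cells. There Cd36 went to -6.05, Cadm1 to -2.66, Gpr141b to -2.73 and Naaa to -2.62, and the difference between C6 and C4 to -4.95 for Cd36, -1.80 for Cadm1 and -0.022 for Naaa. In C4 the count of 9 became 8 with each cell weighted equally, 6 among G1 cells and 7 without the 3 Batf3-/- cells richest in Naaa, an alternative chosen after seeing the data. The count with the larger fall in C6 went from 6 to 4 among G1 cells and to 5 without those 3 cells. In the main setting 1.93% of all genes were at least 2-fold lower in C6 and 1.86% in C4, and 14.8% had the larger fall in C6. No share over all genes is set beside the member counts under these alternatives, so nothing is read from them. Among G1 cells the difference between C6 and C4 turned to 0.051 for Clec9a and 0.30 for Rab7b, and without the 3 cells that of Pdia5 turned to 0.098, the cause of which was not tested. Leaving out the 10% of Batf3-/- C6 cells richest in the members, also chosen after seeing the data, took Cd36 to -5.03 and Cadm1 to -4.14. Without cells of 6 or more members, also chosen after seeing the data, Clec9a in C13 turned to 0.023. Subtracting the C0 level took Wdfy4 in C4 to -7.06, and in C6 left nothing of it.

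The median share of Batf3-/- C6 cells with a UMI was 4.88% at 1000 UMIs per cell, 8.67% at 2000, 20.1% at 5000 and 46.8% unthinned, by construction. The median of members per Batf3-/- C6 cell was 2 at 5000 UMIs, 1 at 2000 and 0 at 1000. With a filter of 100 CPM, 5 members passed and all 5 were at least 2-fold lower in C6, where 2.02% of all genes were. The list was made from this contrast, so nothing is read from this count. No paired analysis was possible because each genotype has 1 library. With 31 cells, the Batf3-/- C4 values rest on 9 to 352 UMIs per gene other than Gcsam.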
